A study of Mus musculus with 6 samples.

Results

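The urea cycle turns ammonia, which is toxic, into urea, and in mammals the complete cycle runs in hepatocytes. The 8 genes described here were chosen by name as its enzymes and their ammonia suppliers: Nags, Cps1, Otc, Ass1, Asl, Arg1, Gls2 and Glud1. All 8 were found among the 12366 genes listed, and all 8 passed the filter of a mean of at least 5 CPM (reads per 1000000), which left 9355 genes for testing. They were measured in liver RNA of male C57BL/6 mice without Acss2 (Acss2-KO, labelled Acss2-/-) and of wild type (WT) mice, with 3 libraries per genotype. All mice had eaten chow, were 22 weeks old and had been fasted for 48 h before collection, so both groups are fasted livers and no fed state was compared. The labels do not say how the deletion was made, or whether each library is a separate animal, and p-values therefore measure the spread between these libraries, part of which may be technical.

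Carbamoyl phosphate synthetase 1 (CPS1) and ornithine transcarbamylase (OTC) carry out the first steps of the cycle in mitochondria, and argininosuccinate synthetase (ASS1), argininosuccinate lyase (ASL) and arginase (ARG1) complete it in the cytosol. N-acetylglutamate, made from glutamate and acetyl-CoA by the NAGS enzyme, is the obligatory activator of CPS1. Periportal hepatocytes carry the cycle and liver glutaminase (GLS2), which releases ammonia from glutamine beside CPS1, whereas a narrow ring of pericentral hepatocytes captures the remaining ammonia with glutamine synthetase (GLUL). ACSS2, the enzyme that the knockout lacks, makes acetyl-CoA from acetate in the cytosol and nucleus.

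Transcripts of 4 of the 5 cycle enzymes were higher in Acss2-KO livers, and the remaining one, Otc, was lower. Over all 8 genes, 5 rose (Cps1, Ass1, Asl, Arg1 and Gls2), 2 fell (Otc and Glud1) and 1 did not pass the test (Nags), at a limma adjusted p under 0.05 over all tested genes. Over all tested genes 36.5% passed, with 13.4% of tested genes higher and 23.1% lower in Acss2-KO, so a call alone was common in these livers. The median log2 fold change was 0.96 over the 8 genes and -0.12 over all tested genes. With libraries scaled by the median of ratios, which put the median of all tested genes at 0.008, 1753 genes were higher and 1681 lower, against 1252 and 2161 on CPM, and the calls of the 8 genes stayed 5 higher and 2 lower. Libraries of the 2 genotypes were fully separated for 7 of the 8 genes, against 52.9% of all tested genes. By the adjusted p-values in the authors' deposited table, 5 of the 8 were under 0.05 (Cps1, Otc, Ass1, Asl and Arg1), against 22.8% of the genes tested here, and Glud1 and Gls2 stood at 0.053 and 0.082 there.

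**Figure D1:**
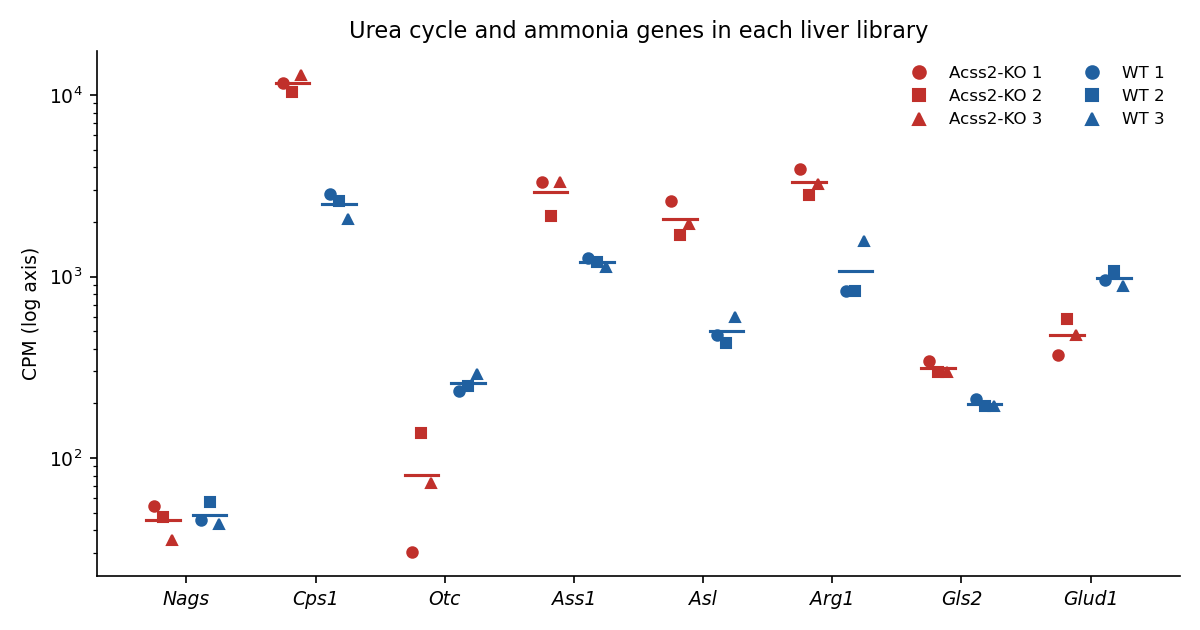
CPM of the 8 genes in each library on a log axis, with Acss2-KO in red left of WT in blue; marker shapes stand for replicates 1 to 3 and short bars for group means. Cps1, Ass1, Asl, Arg1 and Gls2 lie higher in all 3 Acss2-KO libraries than in any WT library, Otc and Glud1 lie lower, and Nags overlaps.

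Acss2 itself was at 2.42 ± 1.10 CPM in Acss2-KO and 76.2 ± 4.19 CPM in WT (SD, n = 3 each), low in each library labelled as knockout. Over all tested genes, Acss2-KO replicate 2 was the most like WT and replicate 1 the least. The correlation of log2(CPM + 1) with the WT libraries was 0.887 to 0.923 for Acss2-KO replicate 2. It was 0.837 to 0.86 for replicate 3 and 0.787 to 0.805 for replicate 1. Between Acss2-KO replicates 1 and 2 it was 0.918. Depth, estimated from the spacing of the lowest values, lay between 21800000 and 30800000 reads per library, so the least abundant of the 8 genes, Nags, rested on roughly 774 to 1777 reads. The liver label was checked against 9 hepatocyte markers, which summed to 104125 to 114028 CPM in Acss2-KO and 95764 to 117962 CPM in WT. Most of that sum was Alb, at 62432 to 81811 CPM over the libraries. None of the 9 was higher and 2 were lower. Ttr was at 1260 CPM in Acss2-KO and 4260 CPM in WT (means, limma adjusted p = 0.00148). Hpx was at 2201 and 3939 CPM (limma adjusted p = 0.0174). With a library left out, 1 to 3 were lower and 0 to 1 higher. All 5 erythroid markers were lower, at 41.2 to 67.0 CPM in Acss2-KO and 162 to 280.5 CPM in WT. The summed level of 5 pancreatic acinar markers differed between libraries and ran from 18.6 to 1060 CPM in Acss2-KO, highest in replicate 1, and from 35.3 to 4706 CPM in WT, highest in replicate 2. None of those 5 markers differed between the genotypes by the limma test, and results were also computed with these 2 libraries left out; the part of this RNA in the results was otherwise not tested. In whole liver, fewer cells of a type and less RNA per cell cannot be told apart.

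Cps1, whose product commits ammonia to the cycle, rose (ENSMUSG00000025991, chromosome 1, 67123026 to 67231259). It was measured at 11666, 10441 and 12944 CPM in Acss2-KO replicates 1 to 3, against 2837, 2610.3 and 2077 CPM in WT replicates 1 to 3. Every Acss2-KO library lay far above every WT library, and the spread within each group was small. Means were 11684 ± 1252 CPM in Acss2-KO and 2508 ± 390.3 CPM in WT (SD, n = 3 each), a 4.68-fold difference on CPM + 1 (log2 fold change of 2.23 with SE 0.21, limma adjusted p = 0.000394). This single transcript accounted for 1.04 to 1.29% of all reads in Acss2-KO and 0.208 to 0.284% in WT. Nags, the gene of the enzyme that makes the activator of CPS1, was at 54.2, 47.2 and 35.5 CPM in Acss2-KO and 45.9, 57.7 and 43.1 CPM in WT (ENSMUSG00000048217, chromosome 11, 102145513 to 102149477). The groups overlapped, with a log2 fold change of -0.11 (SE 0.20, limma adjusted p = 0.703), and the sign of this value turned under some scalings and left-out libraries.

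Otc, which joins carbamoyl phosphate to ornithine, went the other way (ENSMUSG00000031173, chromosome X, 10252305 to 10321024). It was at 30.5, 138 and 73.0 CPM in Acss2-KO replicates 1 to 3 and at 234, 249 and 290.0 CPM in WT replicates 1 to 3. The WT libraries were close together, whereas Acss2-KO replicate 2 held the highest and replicate 1 the lowest of the 3 Acss2-KO values, all of them under the WT range. Means were 80.5 ± 54.2 CPM in Acss2-KO and 258 ± 29.0 CPM in WT (SD, n = 3 each), so Otc was 3.75-fold lower (log2 fold change of -1.91 with SE 0.49, limma adjusted p = 0.0216). The size rested on which Acss2-KO library was counted: the log2 fold change was -1.34 without replicate 1 (adjusted p = 0.0113) and -2.42 without replicate 2 (0.000898). The call was lost without Acss2-KO replicate 3 (adjusted p = 0.0618) or WT replicate 1 (0.0686), 2 (0.0804) or 3 (0.0649). Without those libraries the log2 fold change stayed between -1.97 and -1.82. Over all alternatives adjusted p ran from 0.000898 to 0.0804.

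Ass1, which condenses citrulline with aspartate and so brings in the other nitrogen of urea, rose (ENSMUSG00000076441, chromosome 2, 31470207 to 31520672). Its levels were 3327, 2165 and 3304 CPM in Acss2-KO and 1261, 1201 and 1128 CPM in WT. Here Acss2-KO replicate 2 was the lowest of its group, still above every WT library, and the difference was 2.40-fold (log2 fold change of 1.27 with SE 0.23, limma adjusted p = 0.00431). Asl, which splits argininosuccinate into arginine and fumarate, was at 2592, 1687 and 1951 CPM in Acss2-KO and 478, 431 and 596 CPM in WT (ENSMUSG00000025533, chromosome 5, 130011258 to 130029247). The groups were well apart, with a 4.11-fold difference (log2 fold change of 2.04 with SE 0.23, limma adjusted p = 0.00077).

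Arg1, the liver arginase that releases urea and returns ornithine, was at 3902, 2817 and 3236 CPM in Acss2-KO and 838, 832 and 1563 CPM in WT (ENSMUSG00000019987, chromosome 10, 24915208 to 24927470). WT replicate 3 stood above the other WT libraries, yet below each Acss2-KO library, and the difference was 3.19-fold (log2 fold change of 1.68 with SE 0.29, limma adjusted p = 0.00358). Arg1 is also made by some macrophages. Of 10 tested Kupffer cell and macrophage markers none rose and 3 fell, and their sum was 136 to 213 CPM in Acss2-KO and 238 to 702 CPM in WT. Over all tested genes 13.4% were higher and 23.1% lower. The fallen markers numbered 0 without Acss2-KO replicate 3 or WT replicate 2, 1 without Acss2-KO replicate 1 or WT replicate 3, and 2 without Acss2-KO replicate 2. The part of macrophages in the Arg1 values was not tested. Together the 5 cycle enzymes took 1.72 to 2.15% of reads in Acss2-KO and 0.532 to 0.565% in WT. Otc made up 0.142 to 0.801% of that sum in Acss2-KO and 4.14 to 5.13% in WT.

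**Figure D2:**
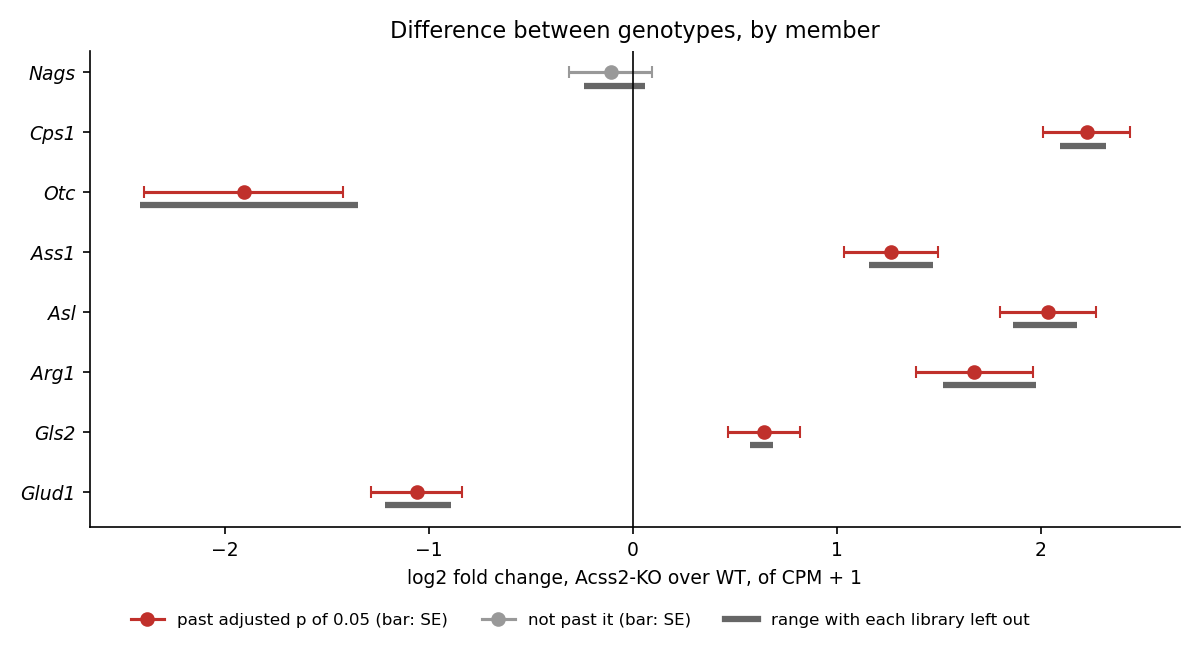
Log2 fold changes of CPM + 1, Acss2-KO over WT, with SE from limma; red points passed an adjusted p of 0.05, the grey point did not, and thick grey lines span the values with each library left out in turn. Otc has the widest span, from -2.42 to -1.34, while Cps1 stays between 2.10 and 2.32.

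Promoter windows were available for both a gene that fell and a gene that rose within the cycle proper, Otc and Ass1, and are shown because the pair moved in opposite directions. They are RefSeq windows on build GRCm38.p6 of 250 bases before and 50 after the annotated start, given 5′ to 3′ on the coding strand, with capitals for matches to the motifs searched on both strands. The Otc window is chrX:10252055-10252354, plus strand, and the Ass1 window is chr2:31470020-31470319, plus strand.
Otc: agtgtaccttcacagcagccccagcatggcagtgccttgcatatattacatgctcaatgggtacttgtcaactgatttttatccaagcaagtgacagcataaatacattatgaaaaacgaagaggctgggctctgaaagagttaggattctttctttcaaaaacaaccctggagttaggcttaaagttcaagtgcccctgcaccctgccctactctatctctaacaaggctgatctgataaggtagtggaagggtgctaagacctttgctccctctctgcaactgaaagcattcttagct
Ass1: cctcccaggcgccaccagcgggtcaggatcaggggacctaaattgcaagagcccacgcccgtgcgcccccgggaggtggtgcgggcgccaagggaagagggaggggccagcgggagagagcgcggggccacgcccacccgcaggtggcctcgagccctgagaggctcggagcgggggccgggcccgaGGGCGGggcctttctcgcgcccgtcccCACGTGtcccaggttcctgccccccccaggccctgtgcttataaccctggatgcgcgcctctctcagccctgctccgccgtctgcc
The windows differ in composition: Otc has 44.3% G and C and 1 CpG, and Ass1 has 74.0% and 27 CpG, against medians of 52.7% and 7 CpG over 32817 promoters. Only 5.43% of promoters held fewer CpG than Otc, and 84.5% held fewer than Ass1. In Ass1 the capitals mark a GC box (GGGCGG, present in 35.6% of promoters) and an E-box (CACGTG, in 7.15%). In Otc there was no match to these or to the other motifs searched: TATAAA (13.6% of promoters), CCAAT (37.4%), TGACG (20.8%), TGACGTCA, which contains TGACG (1.79%), TTGCGCAA (0.183%), CAAAGTCCA (0.475%), TGTTTAC (3.65%) and the palindromic glucocorticoid response element (0.00914%). A match is a description of letters, and no binding was measured.

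Of the enzymes that feed ammonia to the cycle, Gls2 rose and Glud1 fell. Gls2, the liver glutaminase, was at 343, 298 and 298 CPM in Acss2-KO and at 212, 193 and 194 CPM in WT (ENSMUSG00000044005, chromosome 10, 128194457 to 128210004). The groups were narrow and did not overlap, with a 1.56-fold difference (log2 fold change of 0.64 with SE 0.18, limma adjusted p = 0.0216). This was the smallest of the called differences, and the call was lost without Acss2-KO replicate 1 (adjusted p = 0.0559) or 3 (0.0748) or WT replicate 1 (0.0622) or 2 (0.0857), and without both libraries rich in pancreatic markers (0.199). Over all alternatives adjusted p ran from 0.00926 to 0.199. The last 97 bases of Gls2 as listed overlap Spryd4 on the opposite strand, and it is not given whether strand was used in counting. Spryd4 was at 43.4 ± 5.29 CPM in Acss2-KO and 32.5 ± 4.58 CPM in WT and did not pass (SD, n = 3 each; limma adjusted p = 0.0954).

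Glud1, the mitochondrial glutamate dehydrogenase, which can release ammonia from glutamate or take it up, was at 369.6, 580.04 and 474 CPM in Acss2-KO replicates 1 to 3 (ENSMUSG00000021794, chromosome 14, 34310727 to 34345144). In WT it was at 962, 1075 and 891 CPM, so that every Acss2-KO library lay below every WT library. The mean was 475 ± 105 CPM in Acss2-KO and 976 ± 92.5 CPM in WT (SD, n = 3 each), so Glud1 was 2.08-fold lower (log2 fold change of -1.06 with SE 0.22, limma adjusted p = 0.00781). The call was lost only when both libraries rich in pancreatic markers were left out (adjusted p = 0.0746), and over all alternatives adjusted p ran from 0.00343 to 0.0746. As for Otc and over all tested genes, Acss2-KO replicate 2 was nearest to WT and replicate 1 farthest.

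Both Glud1 and Asl start head to head with another listed gene, which was noticed after their values were seen. The Glud1 promoter window (chr14:34310477-34310776, plus strand, GRCm38.p6, RefSeq) is shown because it also takes in the listed end of Fam35a, a shieldin subunit gene of DNA repair on the minus strand, which lies 223 bases before Glud1.
Glud1: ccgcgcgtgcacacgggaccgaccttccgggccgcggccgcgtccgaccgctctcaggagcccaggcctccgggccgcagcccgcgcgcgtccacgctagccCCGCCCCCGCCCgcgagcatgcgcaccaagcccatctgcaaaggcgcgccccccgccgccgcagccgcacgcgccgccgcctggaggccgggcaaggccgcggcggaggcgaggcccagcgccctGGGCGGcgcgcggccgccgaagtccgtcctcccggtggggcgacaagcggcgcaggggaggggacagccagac
It has 81.0% G and C and 51 CpG, more CpG than 99.3% of promoters, and the capitals mark GC boxes on either strand. Fam35a was at 10.0 ± 3.77 CPM in Acss2-KO and 27.1 ± 6.04 CPM in WT (SD, n = 3 each) and fell together with Glud1 (log2 fold change of -1.39 with SE 0.27, limma adjusted p = 0.00575). Crcp, which encodes a subunit of RNA polymerase III, begins 42 bases beyond Asl on the opposite strand and rose as Asl did: 69.3 ± 31.8 CPM in Acss2-KO and 25.5 ± 7.28 CPM in WT (SD, n = 3 each; log2 fold change of 1.35 with SE 0.32, limma adjusted p = 0.0138, and 0.0509 without WT replicate 2, with a range of 0.00283 to 0.0509 over all alternatives). As background, over 357 head-to-head pairs of tested genes with starts up to 1000 bases apart, 12 of 75 partners of genes that rose also rose (16.0%) and 64 of 176 partners of genes that fell also fell (36.4%).

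Levels of different genes were compared per kilobase of exon, with exon lengths from coding transcripts of the GENCODE M1 annotation. In Acss2-KO the order by mean CPM per kilobase was Arg1 (2248 ± 371), Cps1 (2103 ± 225), Ass1 (1729 ± 391.8), Asl (743 ± 167), Glud1 (145 ± 32.2), Gls2 (116 ± 9.49), Nags (22.5 ± 4.65) and Otc (18.99 ± 12.8; SD, n = 3 each). In WT it was Arg1 (729.9 ± 285), Ass1 (706 ± 39.1), Cps1 (451 ± 70.3), Glud1 (299 ± 28.3), Asl (179 ± 30.6), Gls2 (74.0 ± 4.07), Otc (60.8 ± 6.84) and Nags (24.1 ± 3.81; SD, n = 3 each). Neighbours in this order whose ranges over libraries overlapped, and whose order differed from library to library, were Arg1 and Cps1, Glud1 and Gls2, and Nags and Otc in Acss2-KO, and Arg1 and Ass1 in WT. The ranges of Cps1 and Ass1 overlapped in Acss2-KO too, but Ass1 lay below Cps1 and below Arg1 in each Acss2-KO library. Asl stood above Glud1 in every Acss2-KO library and below it in every WT library. Cps1 ranked 30th of 11298 genes by mean CPM per kilobase in Acss2-KO and 139th in WT, and Otc ranked 2319th in Acss2-KO and 982nd in WT.

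**Figure D3:**
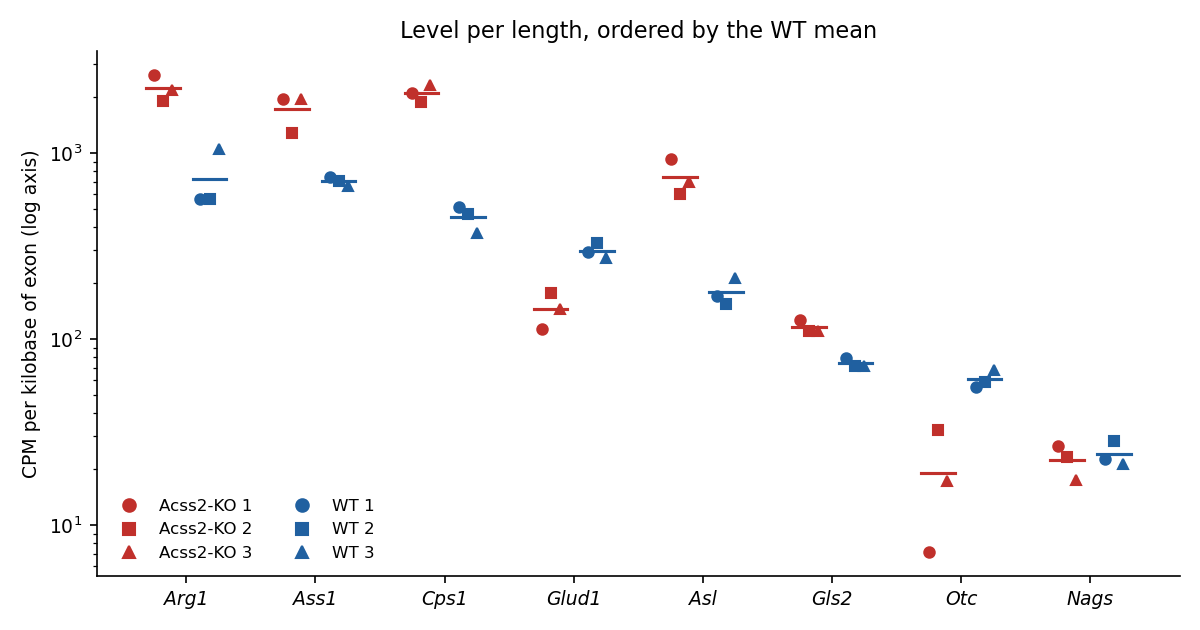
CPM per kilobase of exon on a log axis, genes ordered by their WT mean, Acss2-KO in red left of WT in blue; shapes stand for replicates and short bars for means. Otc lies between 7.19 and 32.6 in Acss2-KO, over the range of Nags, and between 55.2 and 68.4 in WT, above it.

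Ratios between genes of the same library do not depend on the library total, and gene length cancels when a ratio is compared between genotypes. Without correction for length, for each Otc read there were 383, 75.6 and 177 Cps1 reads in Acss2-KO replicates 1 to 3 and 12.1, 10.5 and 7.16 in WT replicates 1 to 3. The log2 ratio of Otc over Cps1 was -7.43 ± 1.17 in Acss2-KO and -3.28 ± 0.39 in WT (SD, n = 3 each), a 17.8-fold difference with no overlap. Leaving out Acss2-KO replicate 2 made it 26.9-fold, and leaving out replicate 1 of that group made it 11.9-fold. With 3 libraries a group, the exact permutation test (two-sided, 20 splits) cannot go below p = 0.1, which it gave here (adjusted p = 0.14 over 7 ratios). Since Cps1 was higher and Otc lower without overlap, this ratio had to separate, and the test adds nothing to their calls. For Asl and Arg1 against Cps1 the groups overlapped: the log2 ratio of Asl over Cps1 differed by -0.19 (exact permutation p = 0.5, adjusted p = 0.5) and that of Arg1 over Cps1 by -0.55 (exact permutation p = 0.3, adjusted p = 0.35). Ass1 over Cps1 was 0.285, 0.207 and 0.255 in Acss2-KO and 0.444, 0.460 and 0.543 in WT, with no overlap (log2 difference -0.96, exact permutation p = 0.1, adjusted p = 0.14).

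Ratios of the glutaminase to its counterparts also stood apart between the genotypes. Gls2 over Glud1 was 0.927, 0.514 and 0.629 in Acss2-KO and 0.221, 0.179 and 0.218 in WT, a 3.26-fold difference. Gls2 over Glul, the pair that releases and captures ammonia at opposite ends of the lobule, was 0.460, 0.722 and 0.859 in Acss2-KO and 0.177, 0.133 and 0.222 in WT, a 3.79-fold difference. Glul over Cps1 was 0.0638, 0.0396 and 0.0268 in Acss2-KO and 0.423, 0.555 and 0.4204 in WT, an 11.3-fold difference. For each of these ratios the groups did not overlap and the exact permutation test gave its smallest value (p = 0.1, adjusted p = 0.14). Gls2 and Cps1 were higher and Glud1 and Glul lower without overlap, so this outcome was fixed by the single genes. It is therefore no separate result.

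**Figure D4:**
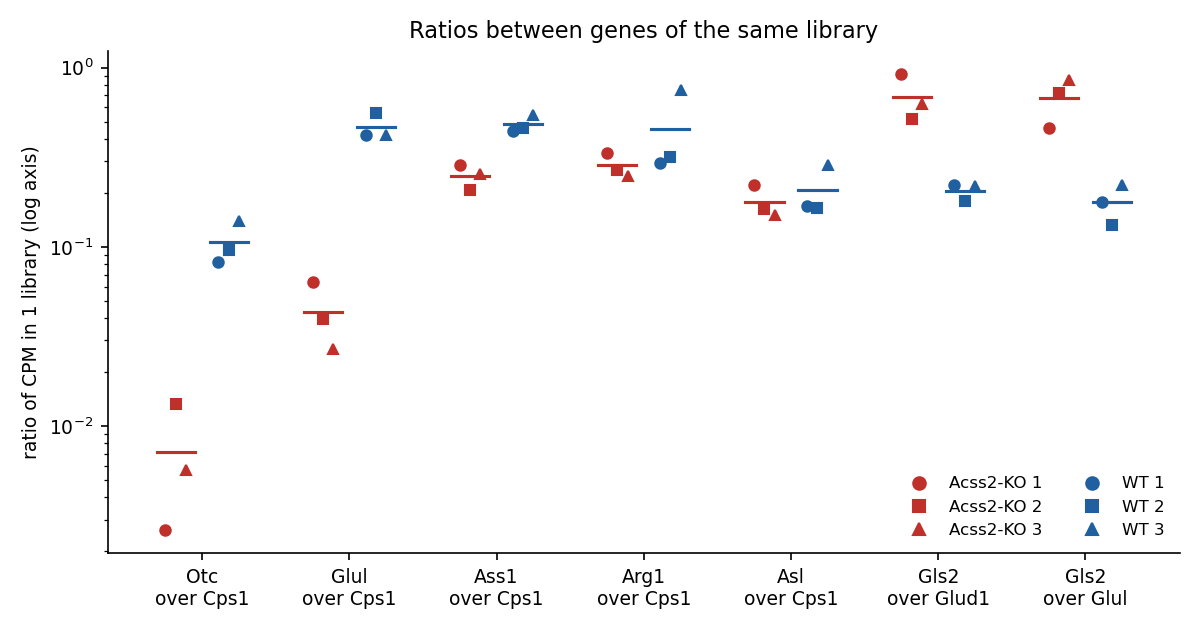
Ratios of CPM within a library on a log axis for 7 gene pairs, Acss2-KO in red left of WT in blue; shapes stand for replicates and short bars for arithmetic means. Otc over Cps1 and Glul over Cps1 lie lower in all 3 Acss2-KO libraries, both Gls2 ratios lie higher, and Asl over Cps1 and Arg1 over Cps1 overlap.

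Of 5 tested genes of perivenous glutamine synthesis and ornithine use, 4 fell and none rose, with a median log2 fold change of -1.42. That count depended on single libraries: 1 gene, Oat, kept its call without WT replicate 2, and 2 were lower without WT replicate 1. Glul was at 744, 413 and 347 CPM in Acss2-KO and 1201, 1448 and 873 CPM in WT; the groups did not overlap (log2 fold change -1.27, limma adjusted p = 0.0152). The Glul call was lost without Acss2-KO replicate 3 (adjusted p = 0.0686) or WT replicate 2 (0.0523), and over all alternatives adjusted p ran from 0.00207 to 0.0686. Oat, the ornithine aminotransferase that removes ornithine from the cycle, was at 918 ± 276 CPM in Acss2-KO and 2756 ± 417 CPM in WT (SD, n = 3 each; log2 fold change -1.62, limma adjusted p = 0.00274). Beside these values, 6 of 8 tested pericentral markers, a list that holds all 7 genes of the one above, were lower and none higher, with summed levels of 6887 to 10641 CPM in Acss2-KO and 14515 to 20114 CPM in WT. Most of that sum was Cyp2e1, at 5043 to 8719 CPM in Acss2-KO and 10661 to 15076 CPM in WT. Leaving out WT replicate 2 left 2 of the pericentral markers lower, and leaving out WT replicate 1 left 3. Of 9 periportal markers outside the 8 genes 2 were higher and 3 lower, with sums of 5987 to 7848 CPM in Acss2-KO and 5808 to 8755 CPM in WT. Most of the periportal sum was Pck1, at 3304 to 5595 CPM in Acss2-KO and 3492 to 5185 CPM in WT. Over all tested genes 13.4% were higher and 23.1% lower. None of the periportal markers was lower without Acss2-KO replicate 3 or WT replicate 1 or 2, where 1 was higher, and 1 was lower without Acss2-KO replicate 1. The part of lobular zonation in the values of the 8 genes was not tested.

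Genes around the cycle were called in both directions. Of 106 genes on 8 lists of related functions, 96 were found, 84 were tested, 16 were higher and 27 lower in Acss2-KO, with a median log2 fold change of -0.12. That median was also -0.12 over all tested genes, of which 13.4% were higher and 23.1% lower. A list count near those shares does not set the list apart from other genes. Of the 43 calls on the lists, 22 were lost on leaving out at least 1 library, and the called genes named below kept theirs with each library left out unless said otherwise. The list counts moved as well, mostly downwards with a library left out, and are given with their range over the left-out libraries. Scaling raised some counts of higher genes, as given in the last section. Among carriers, transporters and bicarbonate supply 2 of 11 tested genes rose and 4 fell (2 and 2 to 4 with a library left out, fewest without Acss2-KO replicate 3 or WT replicate 1 or 2). Slc25a22, a mitochondrial glutamate carrier, was at 793 ± 251 CPM in Acss2-KO and 341 ± 47.5 CPM in WT (SD, n = 3 each; limma adjusted p = 0.00916). Slc25a12, an aspartate-glutamate carrier, was at 33.4 ± 5.23 CPM in Acss2-KO and 16.9 ± 2.42 CPM in WT (SD, n = 3 each; limma adjusted p = 0.00549). Slc25a13, the other aspartate-glutamate carrier on this list, was added after its values were seen. It was more abundant and fell, to 200 ± 55.0 CPM in Acss2-KO against 336 ± 49.4 CPM in WT (SD, n = 3 each, limma adjusted p = 0.0368). This call was lost without Acss2-KO replicate 1 or 3 or WT replicate 1 or 2 (adjusted p = 0.103 to 0.115). Scaling by median of ratios, upper quartile, trimmed mean or quantiles lost it too (limma adjusted p = 0.0547 to 0.073). Over all alternatives its adjusted p ran from 0.0117 to 0.29. Car5a, the mitochondrial carbonic anhydrase that supplies bicarbonate to CPS1, fell to 1.78, 7.52 and 1.65 CPM in Acss2-KO, against 39.4, 49.5 and 36.3 CPM in WT (10.7-fold lower on CPM + 1, limma adjusted p = 0.00189, and 0.0687 without both libraries rich in pancreatic markers, with a range of 1.22e-05 to 0.0687 over all alternatives). Slc25a15, the carrier that exchanges ornithine and citrulline across the inner mitochondrial membrane, was chosen after its values were seen. It was at 338, 347 and 324 CPM in Acss2-KO and 352, 304 and 335 CPM in WT, with overlapping groups (log2 fold change 0.03, limma adjusted p = 0.918, negative without WT replicate 2).

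Enzymes that deliver nitrogen to the cycle, the aminotransferases and ammonia-releasing enzymes, counted 4 higher and 3 lower of 19 tested, with a median log2 fold change of 0.23. With a library left out they counted 2 to 5 higher and 2 to 5 lower, with the fewest higher without Acss2-KO replicate 3 or WT replicate 2 and the most lower without Acss2-KO replicate 2. Got1, the cytosolic aspartate aminotransferase, was at 3444, 955 and 1795 CPM in Acss2-KO and 269, 168 and 261 CPM in WT (log2 fold change 2.98, limma adjusted p = 0.00243). As for Ass1, Acss2-KO replicate 2 was the lowest of its group. Got2, the mitochondrial aspartate aminotransferase, was added after its values were seen and did not pass. It was at 671 ± 79.6 CPM in Acss2-KO and 710 ± 141 CPM in WT (SD, n = 3 each, limma adjusted p = 0.835). Agxt2, a mitochondrial aminotransferase, fell to 98.1 ± 28.9 CPM in Acss2-KO, against 201 ± 9.77 CPM in WT (SD, n = 3 each; limma adjusted p = 0.00931). Maob, monoamine oxidase B, fell to 92.4 ± 44.5 CPM in Acss2-KO, against 234 ± 32.3 CPM in WT (SD, n = 3 each; limma adjusted p = 0.011). In arginine, ornithine and proline metabolism 3 of 13 tested genes rose and 6 fell (median log2 fold change -0.40). The higher calls numbered 0 when Acss2-KO replicate 3 was left out and 1 when replicate 1 of either genotype was, and the lower calls 4 to 6. Azin1, which stabilises ornithine decarboxylase, fell to 34.7 ± 7.20 CPM in Acss2-KO, against 112 ± 6.37 CPM in WT (SD, n = 3 each; limma adjusted p = 0.000749). Gatm, which uses arginine for creatine synthesis, fell to 1.82 ± 0.504 CPM, against 9.02 ± 2.02 CPM in WT (SD, n = 3 each; limma adjusted p = 0.00107). Gatm averaged under 5 CPM, and so was not tested, without WT replicate 1 or 2.

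Other isoenzymes counted 2 higher and 1 lower of 5 tested, with 1 higher on leaving out any single library other than Acss2-KO replicate 2, which gave 3. Asns, which like glutaminase uses glutamine as a nitrogen source, rose to 26.5 ± 6.06 CPM in Acss2-KO, against 2.16 ± 1.12 CPM in WT (SD, n = 3 each; limma adjusted p = 0.000316). Agmat, the agmatinase, fell to 94.5 ± 27.2 CPM, against 215 ± 8.27 CPM in WT (SD, n = 3 each; limma adjusted p = 0.00452). Among fumarate and malate steps 1 of 5 was higher and 1 lower, with 0 lower without Acss2-KO replicate 1 or 3 or WT replicate 1 or 2. Fh1, the fumarase that takes the fumarate released by ASL, rose to 498 ± 116 CPM in Acss2-KO, against 232 ± 54.8 CPM in WT (SD, n = 3 each; limma adjusted p = 0.0122, 0.0596 without Acss2-KO replicate 3 and 0.0634 without both libraries rich in pancreatic markers, with a range of 0.00371 to 0.0634 over all alternatives). On the list named for deacylases and acetylglutamate supply, the tested genes were of deacylases, aminoacylases and mitochondrial proteases. They counted 1 higher and 4 lower of 8 tested (median log2 fold change -0.65), with 2 lower without Acss2-KO replicate 3 or WT replicate 1 or 3. Acy3, an aminoacylase gene, fell to 15.4 ± 8.96 CPM in Acss2-KO, against 59.2 ± 16.7 CPM in WT (SD, n = 3 each, limma adjusted p = 0.0077). The other lower genes were Acy1 (limma adjusted p = 0.0156), Sirt4 (0.0179) and Sirt3 (0.0216, named after its values were seen). Each of these lost its call without at least 1 library, with adjusted p up to 0.0648, 0.063 and 0.0844 over all alternatives. Sirt3 lost it also with median-of-ratios (limma adjusted p = 0.052) and trimmed-mean scaling (0.0579). Sirt5, the deacylase that acts on CPS1 and was singled out after its values were seen, was at 9.001 ± 3.42 CPM in Acss2-KO and 14.7 ± 2.20 CPM in WT and did not pass (SD, n = 3 each; limma adjusted p = 0.0718). Clpx, the unfolding subunit of a mitochondrial protease, rose to 295 ± 93.6 CPM in Acss2-KO, against 95.3 ± 9.41 CPM in WT (SD, n = 3 each; limma adjusted p = 0.00274).

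Of 20 transcriptional regulators of urea cycle genes, 3 were higher, 5 lower and 12 did not pass (median log2 fold change -0.16). With a library left out 2 to 3 were higher and 3 to 5 lower, with 3 lower without Acss2-KO replicate 3 or WT replicate 3. Cebpa, a C/EBP factor required for urea cycle gene expression in mouse liver, fell to 153, 194 and 146 CPM in Acss2-KO, against 340.1, 402 and 282 CPM in WT, without overlap (limma adjusted p = 0.00668). Cebpd, another C/EBP gene, rose to 35.5 ± 7.31 CPM, against 13.8 ± 5.53 CPM in WT (SD, n = 3 each; limma adjusted p = 0.0072). Trp53, the p53 gene, fell to 4.27 ± 2.004 CPM in Acss2-KO, against 17.9 ± 2.03 CPM in WT (SD, n = 3 each; limma adjusted p = 0.00154). Nfya, a subunit of the CCAAT-binding factor, fell to 4.13 ± 1.25 CPM, against 13.3 ± 1.86 CPM in WT (SD, n = 3 each; limma adjusted p = 0.00182). Crtc2, a CREB coactivator in the fasting response, rose to 68.7 ± 14.2 CPM, against 36.5 ± 4.68 CPM in WT (SD, n = 3 each; limma adjusted p = 0.00939, and 0.0566 without both libraries rich in pancreatic markers, with a range of 0.00481 to 0.0566 over all alternatives).

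**Figure D5:**
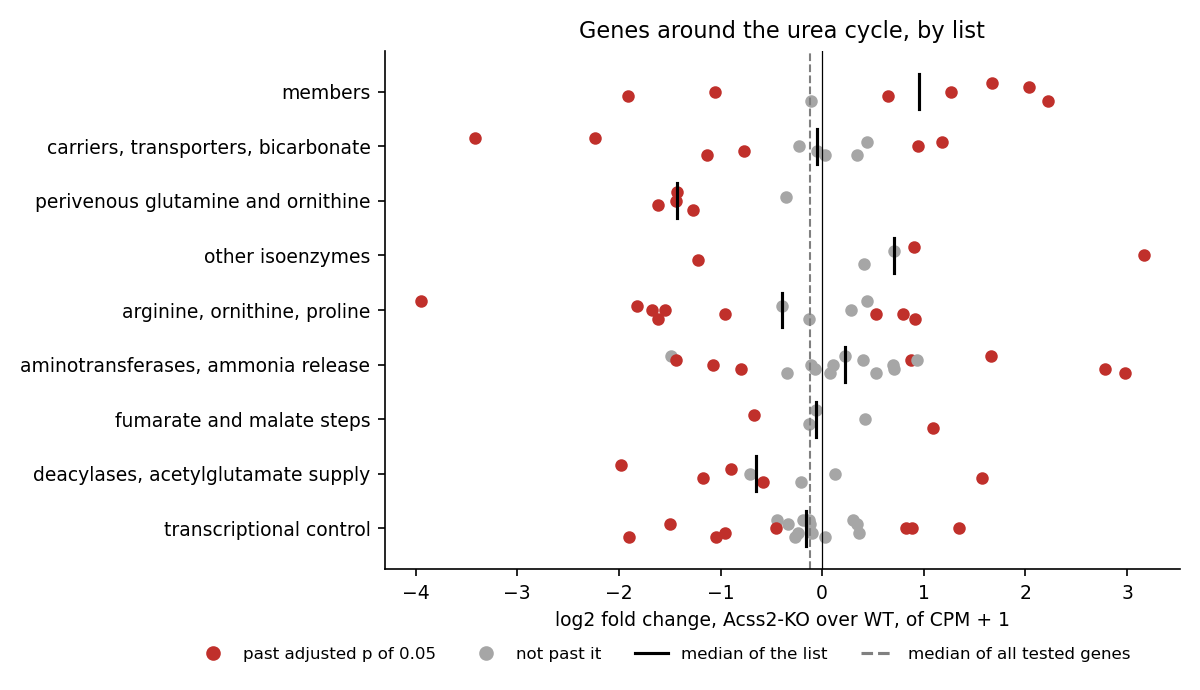
Log2 fold changes of CPM + 1, Acss2-KO over WT, of the tested genes on each list, red where adjusted p was under 0.05 and grey otherwise; black ticks are list medians and the dashed line is the median of all tested genes. The 8 genes have a median of 0.96, and the perivenous list has a median of -1.42.

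Profiles over the 6 libraries were compared by the root mean square difference of log2(CPM + 1) centred on each gene's mean. Gene models with Gm or Rik symbols were left out. Of the other tested genes, Asap2, Cpeb4, D16Ertd472e, Myh10 and Aass were most like Cps1, at 0.17 to 0.21. Asap2 encodes a GTPase-activating protein, Cpeb4 an RNA-binding protein, Myh10 a non-muscle myosin and Aass an enzyme of lysine breakdown. Aass was at 1712 ± 446 CPM in Acss2-KO and 335 ± 56.0 CPM in WT (SD, n = 3 each). The nearest to Otc were Idh1, Prr16, Ebpl, Nat8 and Pbld2, at 0.09 to 0.17. Idh1, the cytosolic isocitrate dehydrogenase, was at 46.5, 184 and 95.0 CPM in Acss2-KO and 292, 322 and 402 CPM in WT, with replicate 1 lowest and replicate 2 highest among the Acss2-KO libraries, as for Otc. This order is not particular to these genes, since replicate 2 was nearest to WT and replicate 1 farthest over all tested genes too. Among the 8 genes themselves, the closest pair by this measure was Asl and Arg1 (0.26) and the farthest Cps1 and Otc (2.18), while Otc was closest to Glud1 (0.63).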

How the data were processed

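Liver RNA of 3 Acss2-KO and 3 WT libraries was sequenced after TruSeq preparation, per the labels. The deposited table gives log2 CPM per library, rounded by the authors to 2 decimals, with values under 1 CPM at 0 (read from the values, which sum to just under 1000000 CPM). The authors also deposited log2 fold changes, p-values and a level score per group, the last not used. The submitters' processing notes name Bowtie 0.12.2 and mm8, without a role. Deposited starts fit GRCm38.p6, at a median distance of 8 bp for 11623 genes, and coordinates were read as GRCm38. The counter and its use of strand were not stated.

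Zeros were set to 1 CPM. Genes averaging 5 CPM or more entered limma 3.58.1 (robust, trend; statmod 1.5.0, R 4.3.3) on log2(CPM + 1), which understates changes of low genes, with Benjamini-Hochberg adjustment over all of them at 0.05, after a test on simulated data. Depth came from the spacing of the lowest values. The 8 genes, the lists and the tests were chosen with earlier results of these data known. Up to 3 genes with the smallest adjusted p in each direction on each related list could be named, and for Cps1 and Otc the 5 genes nearest in profile. The search for these left out Gm and Rik gene models.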

Additional observations from a re-analysis of the deposited data

How the results depend on the processing

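Cps1, Ass1, Asl and Arg1 kept direction and call under all 18 alternatives: pseudocounts of 0.5 and 5 or none, 4 scalings, no filter or a minimum of 20 CPM, an ordinary fit, the replicate block, each library left out, and both libraries rich in pancreatic markers left out. Otc lost its call in 4, Gls2 in 5 and Glud1 in 1 of the 18, as given with their values. Calls among the 8 genes were 4 to 5 higher and 1 to 2 lower on leaving out each library, and 4 and 1 without both libraries. Over all genes, leaving out a library gave 519 to 1608 higher and 1239 to 2420 lower calls, with the larger drops without Acss2-KO replicates 1 (801 higher) and 3 (519 and 1239) and WT replicates 1 (1302 lower) and 2 (780 and 1345); leaving out both libraries gave 715 and 1319, and a minimum of 20 CPM, which tests fewer genes, gave 741 and 1112. Scaling moved the split of all calls, to 1656 higher and 1805 lower by upper quartile, 1803 and 1598 by trimmed mean and 1791 and 1624 by quantiles, against 1252 and 2161 on CPM. Nags, which did not pass, turned positive with median-of-ratios (0.022) and trimmed-mean scaling (0.036), and ran from -0.24 to 0.059 with a library left out. Slc25a15 turned negative without both libraries rich in pancreatic markers (-0.035) and ran from -0.032 to 0.073 with a library left out, and the Asl over Cps1 log2 difference ran from -0.36 to 0.075. The cause was not tested. Same-numbered libraries did not visibly deviate together (r of deviations -0.102, -0.14 and 0.0899, against -0.146 to 0.175 for libraries of different numbers). With 3 libraries a group, these values cannot exclude a pairing. The replicate block gave 5 higher and 2 lower calls among the 8 genes and 1260 higher and 2137 lower over all genes.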
